A study of Arabidopsis thaliana with 9 samples.

Results

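The tau-class glutathione transferase genes GSTU1, GSTU4, GSTU24 and GSTU25 and the cytochrome P450 gene CYP81D11 were followed in inflorescence stems of Arabidopsis thaliana in which lignin synthesis was disturbed. The 5 genes were taken as a group by locus. Each was read by 1 probe set, a set of short oligonucleotides on the array, whose name carries no suffix for transcripts shared by related genes. All 5 of the 5 listed genes had such a probe set, among 14754 genes named on the array. The probe set of GSTU25 (AT1G17180) was named by the platform annotation. Those of GSTU1 (AT2G29490), GSTU4 (AT2G29460), GSTU24 (AT1G17170) and CYP81D11 (AT3G28740) were named through a table in which the authors kept 3785 probe sets. Of the 3783 that are not controls, 3772 (99.7%) were called here and at least 2-fold apart in at least 1 of the 3 comparisons. A gene named through that table alone had thus nearly always changed. The 5 genes were also grouped with earlier results of these arrays known. The number of changed genes among them is therefore not independent evidence that such genes respond.

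The 9 arrays fall into 3 groups of 3, all Columbia-0 plants of 1.5 months grown with 16 h of light and 8 h of darkness. The first group is the ccr-1 mutant, which has lost the function of CCR1, the cinnamoyl-CoA reductase at the entry to monolignol synthesis. The second is HCT-RNAi, in which RNA interference targets HCT, a hydroxycinnamoyl transferase of lignin synthesis. The third is the wild type (WT). The sources used here do not give the promoter of the RNAi construct or the number of independent lines. The labels do not state whether replicate arrays represent different plants, so the spread behind each p-value is that of 3 arrays and may be technical.

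Glutathione transferases join the tripeptide glutathione to reactive, electron-poor molecules, and the conjugates are then moved into the vacuole by ABCC transporters. The tau class is specific to plants, and many of its genes lie in tandem clusters and are induced by herbicides, reactive aldehydes and oxylipins. GSTU24 and GSTU25 are known for conjugating the explosive TNT. CYP81D11 is a cytochrome P450 gene induced by cis-jasmone and by foreign chemicals. The induction of such detoxification genes runs through bZIP proteins of the TGA family, which are regulated by glutaredoxins.

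The targeted transcript was lower in each line. CCR1 averaged 10.07 ± 0.09 in ccr-1 and 11.87 ± 0.03 in WT on the log2 intensity scale, and HCT averaged 8.97 ± 0.05 in HCT-RNAi and 12.50 ± 0.06 in WT (SD, n = 3 arrays each). Each of these transcripts was also lower in the other line. The log2 difference from WT was -0.76 for CCR1 in HCT-RNAi and -0.55 for HCT in ccr-1. Pearson's r over all probe sets was 0.997 to 0.999 between replicates and 0.949 to 0.960 between arrays of unlike genotype. The log2 difference between the probe sets at the 3' and 5' ends of actin was 2.04 ± 0.10 in ccr-1, 2.23 ± 0.11 in HCT-RNAi and 1.94 ± 0.06 in WT. For GAPDH it was 0.36 ± 0.11 in ccr-1, 0.48 ± 0.09 in HCT-RNAi and 0.41 ± 0.08 in WT. The 8 xylem and fibre markers were all named and present on all arrays, and their summed intensity was 15403 to 15578 in ccr-1, 11225 to 12205 in HCT-RNAi and 36468 to 39185 in WT. These 8 were named through the authors' table, and so chosen for change. Floral organ and seed transcripts, named in the same way, also differed between the groups.

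Of the 5 genes, 4 were called higher in ccr-1 than in WT, 3 of them by at least 2-fold, and all 5 were called higher in HCT-RNAi, 4 by at least 2-fold. A call is an adjusted p under 0.05 in limma over 22746 probe sets. The background is wide: 24.7% of all probe sets were called higher in ccr-1 and 32.9% in HCT-RNAi. Those called and at least 2-fold higher made up 5.23% in ccr-1 and 5.06% in HCT-RNAi, and those called lower 30.1% in ccr-1 and 27.7% in HCT-RNAi. Each line was apart from WT on all its arrays for 4 of the 5 genes, as was so for 59.3% of probe sets in ccr-1 and 66.6% in HCT-RNAi. The median log2 difference of the 5 genes was 1.43 in ccr-1 and 2.21 in HCT-RNAi, against -0.04 in ccr-1 and -0.01 in HCT-RNAi over all probe sets. The mean was highest in HCT-RNAi, intermediate in ccr-1 and lowest in WT for each of the 5 genes. The comparisons of ccr-1 and of HCT-RNAi share the 3 WT arrays.

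**Figure D1:**
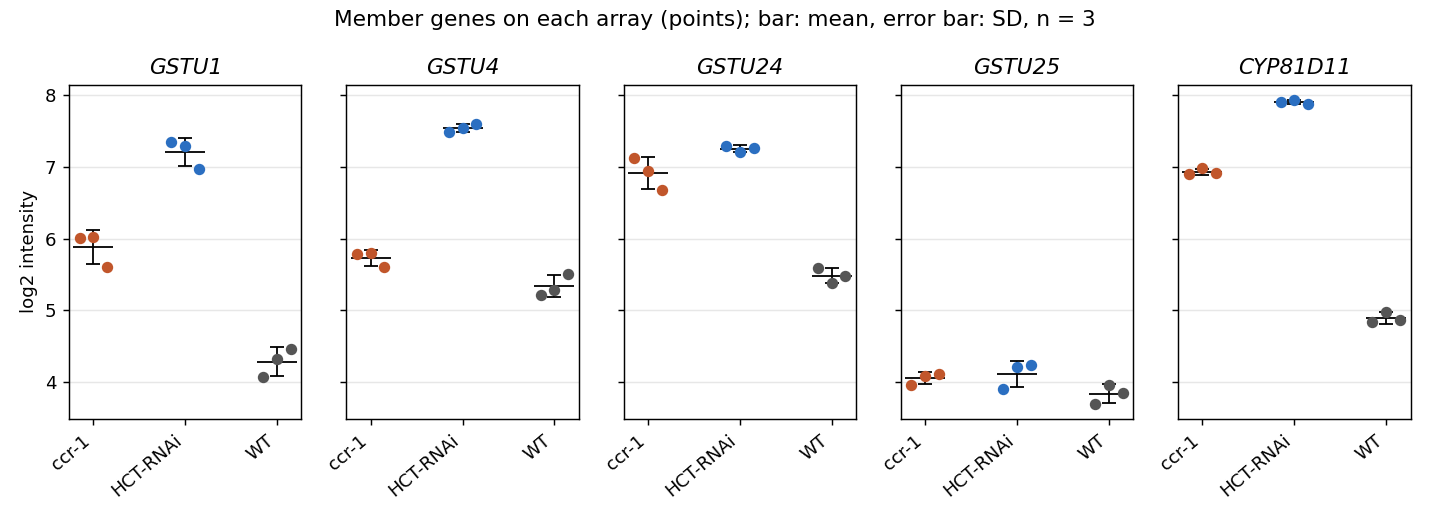
Log2 intensity of the 5 genes on each of the 9 arrays in ccr-1, HCT-RNAi and WT, 1 panel per gene. Points are arrays, bars are group means and error bars are SD (n = 3). The 3 groups are apart for GSTU1, GSTU4, GSTU24 and CYP81D11 and overlap for GSTU25, whose 9 values lie between 3.70 and 4.23.

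CYP81D11 rose in both lines. Its intensities were 120, 127 and 120 in ccr-1, 241, 244 and 236 in HCT-RNAi, and 28.6, 31.6 and 29.1 in WT. The 3 groups did not overlap, and the values within a group lay close together, with a coefficient of variation of 3.20% in ccr-1, 1.75% in HCT-RNAi and 5.44% in WT. The transcript was called present on all 3 arrays of each line and on 1 of the 3 WT arrays. CYP81D11 was 4.11-fold higher in ccr-1 (log2 difference 2.04 ± 0.06, SE of the fit, n = 3 arrays per group; adjusted p = 1.8e-11) and 8.08-fold higher in HCT-RNAi (3.02 ± 0.06, adjusted p = 5.08e-13). Among the 22746 probe sets its difference ranked 401 from the highest in ccr-1 and 101 in HCT-RNAi.

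GSTU1, the other gene with a rise of that order in HCT-RNAi, was not detected in WT. Its intensities were 64.5, 65.0 and 48.7 in ccr-1, 162, 157 and 126 in HCT-RNAi, and 16.8, 19.9 and 22.1 in WT. The 3 WT arrays carry an absent call and the other 6 a present call, so the WT value is a bound. GSTU1 was at least 3.03-fold higher in ccr-1 (adjusted p = 4.2e-07) and at least 7.58-fold higher in HCT-RNAi (adjusted p = 1.02e-09), each fold being set against the higher of the gene's own WT signal and the lowest present signal on that array. Its arrays varied more than those of CYP81D11, with an SD on the log2 scale of 0.24 in ccr-1, 0.20 in HCT-RNAi and 0.20 in WT.

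GSTU4 separated the lines most. Its intensities were 55.2, 55.6 and 48.6 in ccr-1, 180, 187 and 195 in HCT-RNAi, and 37.2, 39.1 and 45.5 in WT. The HCT-RNAi arrays stood far above both other groups, whereas the lowest ccr-1 array was close to the highest WT array. GSTU4 was 1.31-fold higher in ccr-1 (0.39 ± 0.08, adjusted p = 0.00121) and 4.63-fold higher in HCT-RNAi (2.21 ± 0.08, adjusted p = 1.46e-10). Its rise in ccr-1 was 17.7% of its rise in HCT-RNAi on the log2 scale, where the same share was 67.7% for CYP81D11 and 80.7% for GSTU24. For GSTU1, whose rises are bounds, no share is given.

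GSTU24 rose in both lines and was detected in all 3 groups. Its intensities were 139, 123 and 103 in ccr-1, 157, 148 and 154 in HCT-RNAi, and 48.2, 41.6 and 44.7 in WT. Both lines lay above WT on every array, all 9 arrays carry a present call, and the ccr-1 arrays were spread more widely (SD 0.22 on the log2 scale) than those of HCT-RNAi (SD 0.05). GSTU24 was 2.70-fold higher in ccr-1 (1.43 ± 0.10, adjusted p = 5.88e-08) and 3.42-fold higher in HCT-RNAi (1.77 ± 0.10, adjusted p = 5.85e-09).

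GSTU25, the next gene after GSTU24 on chromosome 1, was low on every array and differed little between the groups. Its intensities were 15.51, 17.03 and 17.30 in ccr-1, 14.97, 18.48 and 18.82 in HCT-RNAi, and 12.98, 15.61 and 14.45 in WT. The groups overlapped, and each value was below the lower quartile of its array, which was 26.2 to 29.2. No detection call is listed for this probe set, which is outside the authors' table. Its log2 difference was 0.21 ± 0.09 in ccr-1 (adjusted p = 0.0739) and 0.28 ± 0.09 in HCT-RNAi (adjusted p = 0.0229). The call in HCT-RNAi was lost when each array was centred on its median (0.18, adjusted p = 0.108), and also without HCT-RNAi replicate 2 (0.23, adjusted p = 0.0885), without HCT-RNAi replicate 3 (0.22, adjusted p = 0.0949) or without WT replicate 7 (0.21, adjusted p = 0.103). In ccr-1 the difference passed the threshold without HCT-RNAi replicate 1 (adjusted p = 0.0326) or without WT replicate 8 (0.28, adjusted p = 0.0406).

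Set directly against each other, ccr-1 was lower than HCT-RNAi for 4 of the 5 genes, where 33.6% of all probe sets were called lower, and the arrays of the 2 lines did not overlap for those 4, as for 63% of probe sets. For 2 of the 4 the difference was at least 2-fold, as it was for 2.97% of probe sets. GSTU4 was 3.53-fold lower in ccr-1 (log2 difference -1.82 ± 0.08, adjusted p = 1.62e-09), which ranked 82 from the lowest of all probe sets. GSTU1 differed by -1.32 ± 0.13 (adjusted p = 2.39e-06) and CYP81D11 by -0.97 ± 0.06 (adjusted p = 2.1e-08). GSTU24 differed by -0.34 ± 0.10 (adjusted p = 0.00818), and by -0.23 without ccr-1 replicate 6 (adjusted p = 0.0285). For GSTU25 the difference was -0.06 (95% interval -0.27 to 0.14, adjusted p = 0.6), and its sign turned to 0.01 after median centring.

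The genes beside the members were compared next, since the tau genes lie in clusters. In the gene order of the RefSeq annotation, GSTU24, GSTU25 and GSTU26 follow one another. GSTU26, another tau transferase gene, was 1.76 ± 0.11 higher in ccr-1 (adjusted p = 3.1e-08) and 0.51 ± 0.11 higher in HCT-RNAi (adjusted p = 0.0014) on the log2 scale. Set against HCT-RNAi, ccr-1 had 1.25 ± 0.11 more of GSTU26 (adjusted p = 8.31e-07), whereas for GSTU24 the sign was negative. The rise of GSTU24 exceeded that of GSTU25 by 1.22 in ccr-1 and 1.50 in HCT-RNAi on the log2 scale, with no overlap between the groups. An exact two-sided permutation test of 3 arrays against 3 gave p = 0.1 for each, the smallest it allows, and the same for GSTU1 against GSTU4 (4 such comparisons in all). GSTU1 rose by at least 1.21 more than GSTU4 in ccr-1 and by at least 0.71 more in HCT-RNAi, since its WT level is a bound.

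GSTU4 and GSTU1 belong to a second cluster on chromosome 2, with GSTU3 and GSTU2 between them, which have no named probe set here. The gene on the far side of GSTU1, AT2G29500, encodes a small heat shock protein of the HSP20 class and is no transferase. It was 1.04 ± 0.08 higher in ccr-1 and 2.14 ± 0.08 higher in HCT-RNAi on the log2 scale. AT2G29510, one gene further, fell by 0.71 in ccr-1 and had a difference of -0.07 in HCT-RNAi that did not pass (adjusted p = 0.314). Next to CYP81D11, AT3G28750, described by the authors' deposited table as an unknown protein, rose by 2.13 ± 0.05 in ccr-1 and 0.85 ± 0.05 in HCT-RNAi.

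**Figure D2:**
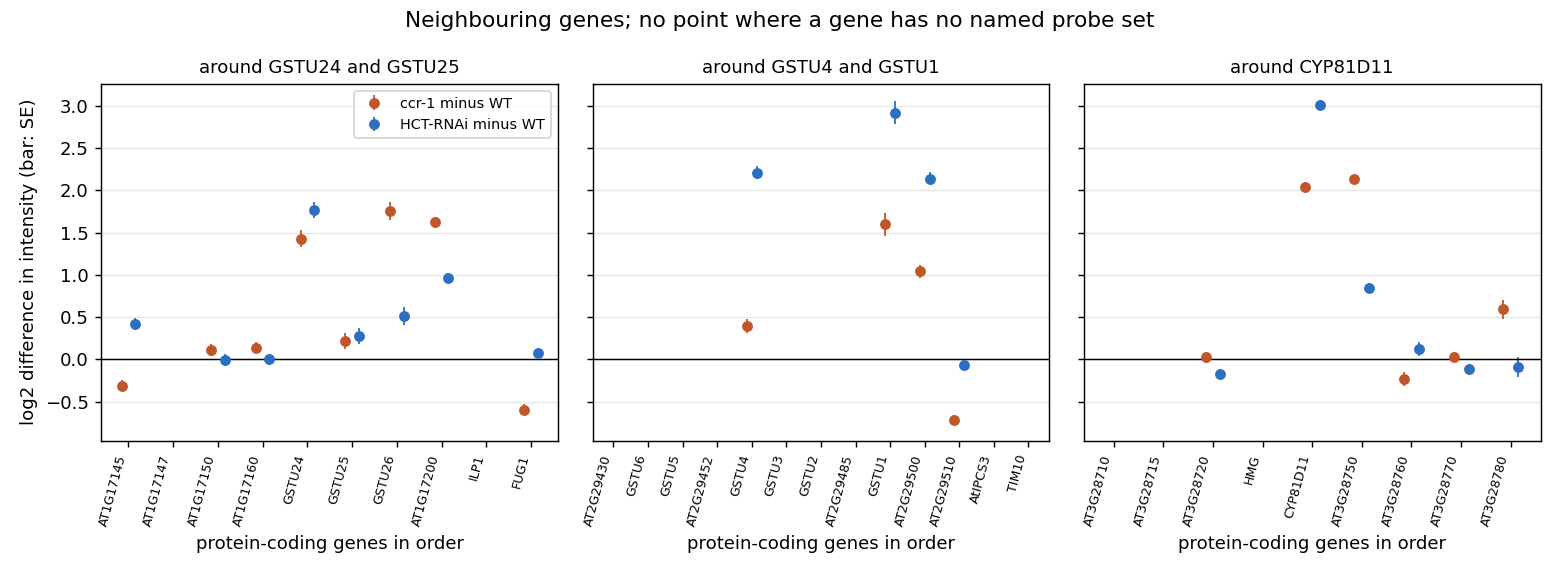
Log2 difference from WT (points, with SE) of the protein-coding genes around the members, in gene order, for ccr-1 and HCT-RNAi. GSTU25 (0.21 and 0.28) lies between GSTU24 (1.43 and 1.77) and GSTU26, GSTU26 has 1.76 in ccr-1 and 0.51 in HCT-RNAi, and GSTU4 is high in HCT-RNAi (2.21) and low in ccr-1 (0.39).

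The other tau genes moved in both directions. Of 24 other tau genes 12 had a named probe set, of which 6 rose, 2 fell and 4 did not pass in ccr-1, and 8 rose, 3 fell and 1 did not pass in HCT-RNAi. Of all probe sets, 24.7% were called higher and 30.1% lower in ccr-1, and 32.9% higher and 27.7% lower in HCT-RNAi. The median log2 difference of the 12 was 0.17 in ccr-1 and 0.33 in HCT-RNAi, against -0.04 and -0.01 over all probe sets. Leaving out GSTU7 and GSTU19, which were named through the authors' table, 4 of 10 rose and 2 fell in ccr-1, and 6 of 10 rose and 3 fell in HCT-RNAi. Of the calls, that of GSTU15 in ccr-1 and that of GSTU22 in HCT-RNAi were lost after median centring (adjusted p = 0.0642 and 0.211). GSTU7, in the same cluster as GSTU4 and GSTU1, rose by 1.13 ± 0.05 in ccr-1 and 1.25 ± 0.05 in HCT-RNAi. GSTU19 rose by 0.59 ± 0.05 in ccr-1 and 1.19 ± 0.05 in HCT-RNAi. GSTU23 fell in both lines, with log2 differences of -1.11 in ccr-1 and -0.99 in HCT-RNAi. GSTU27 had opposite signs, 0.63 ± 0.05 in ccr-1 and -0.48 ± 0.05 in HCT-RNAi, and the 2 lines differed by 1.11 ± 0.05 (adjusted p = 3.89e-09).

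**Figure D3:**
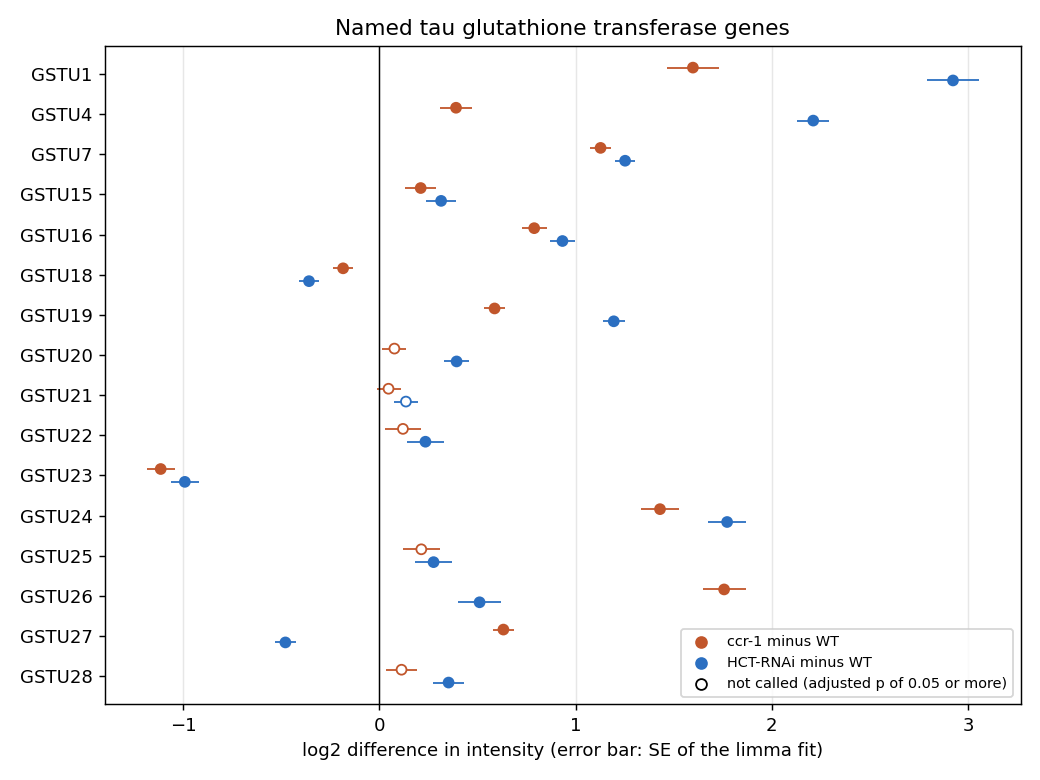
Log2 difference from WT of the 16 tau-class genes with a named probe set, in ccr-1 and HCT-RNAi. Error bars are the SE of the limma fit, and open points did not pass an adjusted p of 0.05. GSTU1 and GSTU4 lie furthest to the right in HCT-RNAi (2.92 and 2.21), GSTU26 and GSTU1 in ccr-1 (1.76 and 1.60), and GSTU23 furthest to the left in both.

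Transferases outside the tau class had no common direction. Of the 25 listed, 6 were named, and 2 rose and 2 fell in ccr-1 while 3 rose and 2 fell in HCT-RNAi. The shares over all probe sets were 24.7% higher and 30.1% lower in ccr-1, and 32.9% higher and 27.7% lower in HCT-RNAi. In HCT-RNAi, median centring ended the rise of GSTL3 (adjusted p = 0.101) and brought GSTF13 to a fall (adjusted p = 0.0417). GSTF12, the phi-class transferase needed for anthocyanin storage in the vacuole, rose by 2.36 ± 0.06 in ccr-1 and 4.80 ± 0.06 in HCT-RNAi, more than any member. GSTF4 fell, with log2 differences of -1.80 in ccr-1 and -1.64 in HCT-RNAi. GSTF8, whose gene is a classic reporter of stress and salicylic acid, rose by 0.59 in ccr-1 and fell by 0.84 in HCT-RNAi. GSTF12 and GSTF8 were named through the authors' table, and so chosen for change, and GSTF4 by the platform annotation. Among relatives of CYP81D11, 2 of 11 were named, CYP81D5 through the authors' table and CYP81D10 by the platform annotation. CYP81D5 rose by 0.79 ± 0.06 in ccr-1 and 1.12 ± 0.06 in HCT-RNAi, and CYP81D10 had 0.06 ± 0.08 without a call in ccr-1 and 0.29 ± 0.08 in HCT-RNAi, a call lost after median centring (adjusted p = 0.0678).

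Of 13 other genes of the response to foreign chemicals and reactive electrophiles 7 were named. Of these, 5 rose and 1 fell in ccr-1 while 6 rose in HCT-RNAi, with medians of 1.74 in ccr-1 and 1.42 in HCT-RNAi. Over all probe sets, 24.7% were called higher in ccr-1 and 32.9% in HCT-RNAi. AER, an alkenal reductase that removes reactive carbonyls, rose by 1.81 ± 0.06 in ccr-1 and 2.47 ± 0.06 in HCT-RNAi. AKR4C9, an aldo-keto reductase of reactive aldehydes, rose by 1.74 ± 0.06 in ccr-1 and 1.69 ± 0.06 in HCT-RNAi, a difference that did not pass the test (adjusted p = 0.46). Between the lines, 2 of the 7 were called higher in ccr-1, 2 were called lower and 3 did not pass. The glucosyltransferase gene UGT75B1 and the NAC factor gene ANAC032 exceeded HCT-RNAi in ccr-1 by 0.40 ± 0.08 and 0.55 ± 0.06. That is the opposite order to that of the 4 members called between the lines. AER and UGT73B5 had the same order as those members, with -0.66 ± 0.06 and -0.70 ± 0.07. UGT73B5 fell by 0.25 in ccr-1 and rose by 0.45 in HCT-RNAi. UGT73B4 passed in neither line (0.07 ± 0.08 in ccr-1 and 0.09 ± 0.08 in HCT-RNAi). Of the 4 named by the platform annotation, 2 rose and 1 fell in ccr-1 and 3 rose in HCT-RNAi. The medians of these 4 were only 0.19 in ccr-1 and 0.42 in HCT-RNAi. UGT75B1, AKR4C9 and ANAC032 were named through the authors' table, and so chosen for change. Their medians were 1.97 in ccr-1 and 1.69 in HCT-RNAi.

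Genes that act before and after conjugation were looked at next. Both transporters and the 3 TGA genes below were named through the authors' table alone, and so chosen for change. The vacuolar transporters of glutathione conjugates, 2 named of 4, both rose in HCT-RNAi: ABCC2 by 1.21 ± 0.07 and ABCC1 by 0.70 ± 0.07. In ccr-1 ABCC1 fell by 0.31 on the log2 scale, and ABCC2 had 0.19 ± 0.07 (adjusted p = 0.0422), a call lost after median centring (adjusted p = 0.0589). The TGA genes with a named probe set were TGA3, TGA4 and TGA7, and all 3 rose in HCT-RNAi: TGA3 by 1.13 ± 0.07, TGA7 by 1.07 ± 0.06 and TGA4 by 0.46 ± 0.10. In ccr-1 TGA4 fell by 0.88 and TGA7 by 0.27 on the log2 scale, and TGA3 had -0.13 ± 0.07 without a call (adjusted p = 0.103). Between the lines, ccr-1 minus HCT-RNAi gave -1.27 for TGA3, -1.34 for TGA7 and -1.34 for TGA4. Whether these 3 factors regulate the members was not tested, and other TGA genes could not be read here. The glutaredoxin gene GRXC9, whose protein binds TGA factors, fell, with log2 differences of -1.51 in ccr-1 and -1.52 in HCT-RNAi. It brings the list of TGA regulators to 4 named of 10, and it did not pass between the lines (0.01 ± 0.09, adjusted p = 0.947).

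Of 8 genes of glutathione synthesis and turnover 4 were named. GGT1, a gamma-glutamyl transferase that breaks glutathione down outside the cell, fell, with log2 differences of -1.33 in ccr-1 and -1.76 in HCT-RNAi. PCS1, phytochelatin synthase, had -1.13 in ccr-1 and -1.24 in HCT-RNAi, both called. GGT1 and PCS1 were named through the authors' table, and so chosen for change, whereas GR1 and GR2 were named by the platform annotation. GR1, a glutathione reductase, rose by 0.43 ± 0.07 in ccr-1 and 0.52 ± 0.07 in HCT-RNAi, and GR2, its organellar counterpart, rose by 0.45 ± 0.05 in HCT-RNAi and had -0.03 ± 0.05 without a call in ccr-1. Oxylipins induce several detoxification genes, and the genes of their synthesis and signalling were split. LOX2, the lipoxygenase of jasmonate synthesis, rose by 4.00 ± 0.07 in ccr-1 and 4.65 ± 0.07 in HCT-RNAi. The synthesis genes AOC3 and OPR3 and the signalling gene MYC2, the other 3 named of 10, fell in both lines. All 4 were named through the authors' table. Of 13 genes of oxidative stress 2 were named. ZAT12, a zinc finger gene of the response to reactive oxygen, was named through the authors' table. It fell, with log2 differences of -0.997 in ccr-1 and -1.72 in HCT-RNAi. UPOX fell by 0.63 in ccr-1 and had -0.22 ± 0.16 in HCT-RNAi without a call.

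**Figure D4:**
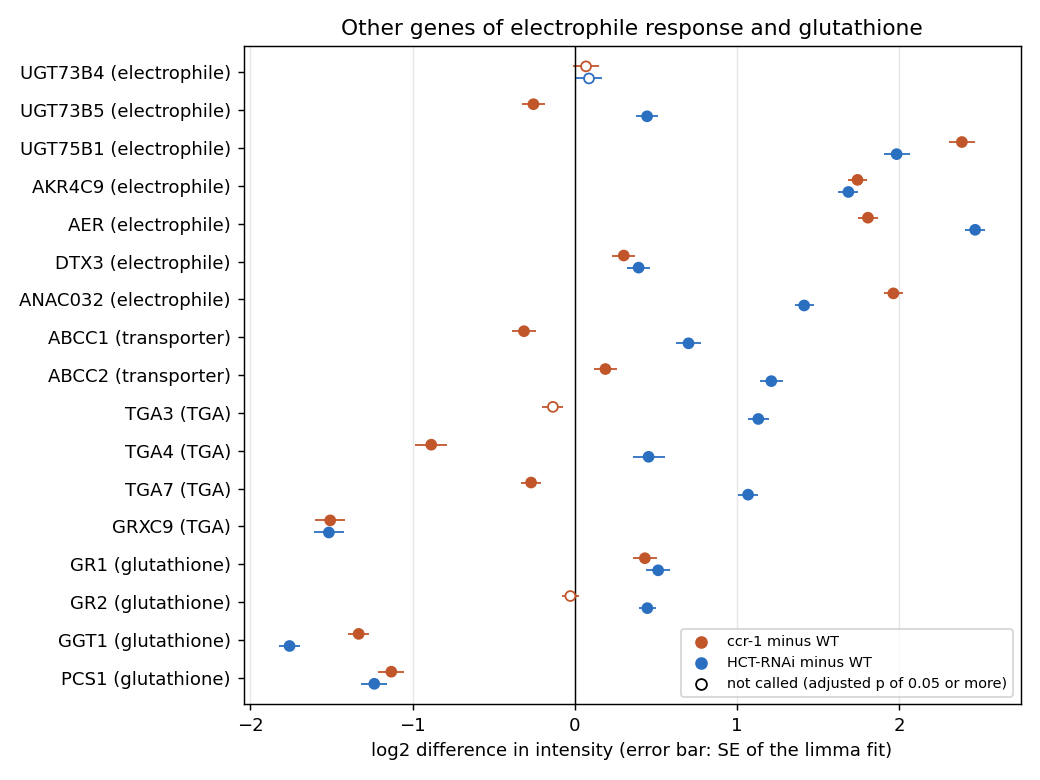
Log2 difference from WT of 17 named genes of electrophile response, conjugate transport, TGA regulation and glutathione metabolism, in ccr-1 and HCT-RNAi. Error bars are the SE of the limma fit, and open points did not pass an adjusted p of 0.05. AER, UGT75B1, AKR4C9 and ANAC032 lie to the right in both lines (1.42 to 2.47), whereas the TGA and ABCC genes are higher in HCT-RNAi than in ccr-1.

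The genes most like the members were found by the Euclidean distance between log2 profiles over the 9 arrays, each profile centred on its own mean, among 14879 other named probe sets. Of the 10 distances between the members themselves, that between GSTU1 and CYP81D11 was the smallest at 0.745. CYP81D11 was nearest to HAI2, a phosphatase gene of abscisic acid signalling, at 0.28, and to TT4, the chalcone synthase gene, at 0.33. TT4 was 1.98 ± 0.06 higher in ccr-1 and 3.17 ± 0.06 higher in HCT-RNAi. GSTU24 was nearest to PFA-DSP4, a phosphatase gene (0.30), and to AT3G05180, a GDSL lipase gene (0.35). GSTU4 was nearest to AT4G04750, a gene of the major facilitator transporters, at 0.23. The neighbours of GSTU1 were further away: AT1G54820, a protein kinase gene, at 0.62 and AT2G30540, a thioredoxin-fold gene, at 0.64. GSTU25 was nearest to AT1G08350 at 0.17. The mean profile of the 5 members was nearest to that of FMO GS-OX2, an S-oxygenase gene of glucosinolates, at 0.21, followed by KAT5 (0.33), the chalcone isomerase-like gene CHIL (0.33), HSP70 (0.35) and GOX3 (0.36). The distances describe these 3 groups and carry no test.

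Markers of other organs and of the hour of harvest moved on the same arrays. Of 11 floral organ genes 9 were named, and their summed intensity was 2994 to 3130 in ccr-1, 1019 to 1046 in HCT-RNAi and 267 to 283 in WT. AP3, STK and SHP2 carry an absent call on all WT arrays. Of 10 seed storage genes all 10 were named, with a sum of 84375 to 87227 in ccr-1, 192 to 199 in HCT-RNAi and 197 to 211 in WT. Of 3 pollen markers, all named, the sum was 1160 to 1255 in ccr-1, 558 to 576 in HCT-RNAi and 793 to 805 in WT. They did not move together. TUA1 had log2 differences from WT of -0.25 in ccr-1 and -0.85 in HCT-RNAi. AGP11 had 1.93 in ccr-1 and 0.51 in HCT-RNAi. AGP6 had 1.78 in ccr-1 and 0.12 in HCT-RNAi, the latter without a call (adjusted p = 0.122). No marker is listed at 0. The floral organ, seed storage and pollen sums were highest in ccr-1, and the means of the 5 members were highest in HCT-RNAi. In HCT-RNAi the floral organ sum was above its range in WT, and the seed storage sum was not. Evening clock genes, 3 named of 6, had a median of 0.27 in ccr-1 and 1.22 in HCT-RNAi, while PRR7, 1 named of 4 morning genes, had -0.94 ± 0.09 in ccr-1 and 0.29 ± 0.09 in HCT-RNAi (adjusted p = 0.0792 after median centring). The 9 floral organ genes, the 10 seed storage genes, AGP6 and AGP11 were named through the authors' table, and so chosen for change. So were PRR7 and 2 of the 3 evening genes. The part of these organs and of the hour of harvest in the members' values was not tested. In whole stems, fewer cells of a type and less RNA per cell cannot be told apart.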

How the data were processed

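Expression was measured on an Affymetrix array in 9 stem samples (1.5 µg of total RNA each, per the labels' protocols). The authors deposited an intensity, not log-transformed, for each probe set on each array. Per the submitters' processing notes, RMA and MAS5 were used; the sources used here give no version. RMA in general compresses changes near the floor. A second table deposited by the authors repeats these intensities for 3785 probe sets (largest difference 0) and adds detection calls (present, marginal, absent).

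Log2 was taken here, the 64 controls were dropped, and the other 22746 probe sets entered a test with limma 3.58.1 in R 4.3.3 (1 mean per group, all 9 arrays), with Benjamini-Hochberg adjustment over all of them. Precision is limited by how few arrays there are. The code was tested on simulated data. Names came from the platform's annotation (1 gene for 13513, several for 503, none listed for 8730) and otherwise from the authors' locus column. Together these sources named 14884 probe sets. The 1061 with a suffix for shared transcripts stayed unnamed. Symbols and gene order came from RefSeq TAIR10.1.

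All members were described. Other genes came from lists. The genes with the largest and the smallest log2 difference from WT in each line were named, except for organ, cell type and clock markers. Those markers were given mainly as summed intensities or as a median. Also named were up to 2 nearest profiles to each member and the 5 nearest to their mean. Members and lists were chosen with earlier results of these data known. Neighbouring genes and further list genes were chosen after their values were seen. Alternatives were median centring, other variance settings, linear values, filters on dim probe sets and leaving out each array.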

Additional observations from a re-analysis of the deposited data

How the results depend on the processing

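For GSTU1, GSTU4, GSTU24 and CYP81D11, all 168 alternative values of their 12 differences kept their direction and their side of the threshold. Many of these alternatives could not alter the difference itself. Other variance settings, a fit of 2 groups, filters on dim probe sets and leaving out an array of the third group change only the adjusted p. For those, the direction was fixed in advance. GSTU25 depended on the processing. In HCT-RNAi against WT its log2 difference was 0.18 after median centring (adjusted p = 0.108) and between 0.21 and 0.38 with 1 array left out, and on the linear scale it was 3.07 intensity units (adjusted p = 0.125). In ccr-1 against WT it was 0.21 (adjusted p = 0.0468) when the fit held 2 groups, and between 0.14 and 0.28 with 1 array left out. In ccr-1 against HCT-RNAi it turned to 0.0114 after centring. The cause was not tested. Centring shifted all differences of HCT-RNAi from WT by -0.10 and of ccr-1 from HCT-RNAi by 0.07 on the log2 scale. With it, 39.5% of the calls of HCT-RNAi against WT were higher, where 54.2% were without it, and 53.8% of those of ccr-1 against HCT-RNAi, where 43.1% were without it. When the test held only probe sets above the median level, 8999 were called in HCT-RNAi against WT, where 13783 were called in the full set, and 8819 in ccr-1 against HCT-RNAi, where 13406 were called in the full set, since fewer were tested. None of the 5 members is above that median. A filter at the lower quartile, chosen after seeing the data, kept all but GSTU25. No paired analysis was possible because the replicate numbers run from 1 to 9 and no 2 groups share one. Near the floor, signal over background limits what can be seen, as for GSTU25 and for GSTU1 in WT.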
